A study of Mus musculus with 3 samples.

Results

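The cytosolic ribosomal protein genes of the developing mouse retina are described here across cell types, agonist doses and *Sstr2* genotypes. Members were chosen by symbol alone: Rpl or Rps followed by a number and at most one of the letters a, l, x or y, together with Rplp0, Rplp1, Rplp2 and Rpsa, leaving out symbols with -ps and the Rps6k kinases. The rule found 79 genes among the 19946 listed in any library, 48 of the large subunit and 31 of the small subunit. Of these, 78 were listed in all 3 libraries, and Rpl39l was listed only at P14. Related genes outside the rule, such as Rps3a1, Fau, Rack1 and Rpl22l1, were not counted as members.

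The study asked how somatostatin receptor 2 (Sstr2) acts on retinal neurogenesis, and profiled single cells with MULTI-seq, in which lipid-anchored barcodes tag the cells of each sample before they are pooled into one droplet library. The explant library held 8 samples: wild-type CD1 retinas taken at E14 and grown on membranes for 6 days with a small-molecule Sstr2 agonist at 0, 5, 50 or 500 nM in the medium, 2 samples per dose, so that they ended at an age equivalent to P0. The P0 and P14 libraries each held 5 multiplexed samples, from retinas of littermates on a mixed C57BL/6 and CD1 background, 1 *Sstr2* +/+ (wild type), 2 *Sstr2* +/- (heterozygous) and 2 *Sstr2*-/- (knockout), which developed in vivo without agonist. The allele was made in C57BL/6NCrl and outbred to CD1, and only 1 wild-type sample represents each age. How many retinas each sample pooled, and whether samples came from separate animals, is not stated, so p-values measure the spread between these samples. Library, age, culture and strain cannot be told apart.

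A ribosome has a large subunit, which forms peptide bonds, and a small subunit, which reads the mRNA, and each subunit holds a single copy of most of its proteins. Members of both subunits are usually produced together, since unpaired ribosomal proteins are degraded, and their mRNAs typically begin with a run of pyrimidines (the TOP motif) through which growth signals set their translation. Dividing progenitors usually make many ribosomes, and cells make fewer after they leave the cell cycle.

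The total per sample ran from 1281682 to 4237324 UMIs (unique molecular identifiers, one per captured mRNA) in 318 to 1075 cells for explants, from 8822880 to 10793649 in 1018 to 1254 cells at P0, and from 1266730 to 5886669 in 304 to 1000 cells at P14. The authors named the cell types from clusters of these same cells, and ribosomal protein genes could take part in that clustering, so differences between types are not independent of how the types were drawn. Of the 5 or 6 marker genes listed for each type, at least 5 had their highest level in the type they mark in every library. Libraries shared few cell barcodes, 9 between explants and P0, 4 between explants and P14 and 7 between P0 and P14. *Sstr2* mRNA itself was counted at 14.1 CPM (counts per 1e6 UMIs) in the wild-type P0 sample, 22.3 and 33.5 in heterozygous samples, and 41.0 and 43.3 in knockout samples. It was thus higher in the samples labelled knockout, and where the 3′ reads lie relative to the deleted part is not given in the sources used here, so these counts do not check the genotype labels.

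The annotated starts of a few members are shown because a pyrimidine run at the start is what the group is known for. The lines were picked and do not stand for the set, in which most members had no such run over an annotated start. Each line gives 30 bases around the annotated transcription start, 15 on each side, read 5′ to 3′ on the gene's strand from RefSeq (GRCm38.p6), with any run of 5 or more C or T over the start in capitals.
Rpl35, large subunit, chr2:39005117-39005146, minus strand: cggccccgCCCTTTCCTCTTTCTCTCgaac
Rpl38, large subunit, chr11:114668565-114668594, plus strand: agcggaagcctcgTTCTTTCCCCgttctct
Rplp2, stalk, chr7:141447636-141447665, plus strand: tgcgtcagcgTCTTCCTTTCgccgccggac
Rps6, small subunit, chr4:86857353-86857382, minus strand: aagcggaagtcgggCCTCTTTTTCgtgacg
Rps9, small subunit, chr7:3704026-3704055, plus strand: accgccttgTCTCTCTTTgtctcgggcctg
Rps27, small subunit, chr3:90213634-90213663, minus strand: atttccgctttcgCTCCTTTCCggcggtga
Rps27l, paralog of Rps27, chr9:66946071-66946100, plus strand: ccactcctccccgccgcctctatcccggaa
Rpl3l, paralog of Rpl3, chr17:24727811-24727840, plus strand: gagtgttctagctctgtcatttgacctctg
Rps27 and Rps27l differ at this point, as the annotated start of Rps27 lies in a pyrimidine run and that of Rps27l does not. The annotated start of Rps27l is a G directly followed by 5 C or T bases, so a small shift of that start would place it in a run. Over the 71 RefSeq promoters of 59 members, 20 (28.2%), from 20 members, had such a run over the start, against 10.1% of 32851 mouse promoters. Rpsa, Rplp0, Rpl36a, Rpl10, Rps12 and Rps19, which are named in the results below, had none over their annotated starts. In the 300-base promoter windows, CCGGAAG on either strand was found in 26 member promoters (36.6%, against 8.86% of all) and CTTTCC on either strand in 35 (49.3%, against 26.6%). TATAAA was found in 6 (8.45%, against 13.6%). A match is a description of letters in an annotated window, and annotated starts can miss the base at which transcription begins.

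Members were spread over 19 chromosomes, with 14 on chromosome 7. Levels between genes are given as CPM without division by length, since the 3′ chemistry counts one end per transcript. In explant primary progenitors, Rpl13 of the large subunit was the most abundant member at 6880 ± 310 CPM (SD, n = 8), and Rps27a, made as a fusion with ubiquitin, had 5270 ± 320 CPM. In P0 primary progenitors Rps29 led at 7505 ± 189 CPM (n = 5), followed by Rps24 at 5830 ± 306 and Rpl41, the smallest ribosomal protein, at 5682 ± 106. In P14 rods the order began with Rps29 at 2773 ± 119 CPM and Rpl41 at 2473 ± 62.4 (n = 5). The order of the members therefore differed between explant and P0 progenitors. Rpl38 had 1180 ± 76.4 CPM in explants and 4021 ± 88.2 at P0, a log2 ratio of 1.77 between the libraries, and Rps29 had a log2 ratio of 1.58. These ratios compare libraries and have no test. Rpl3l, Rpl13a and Rps27l were the lowest members in P0 primary progenitors and, after Rpl39l, which was at 0 in all 5 samples, in P14 rods. In explant primary progenitors Rpl3l was at 0, and Rpl29 was next at 157 ± 16.1 CPM.

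As a share of all UMIs, the members were highest in progenitors and lower in each class of neuron that the libraries held. In explants, they took 18.0%, 20.6% and 21.0% (lowest, median and highest of 8) in primary progenitors, the cycling multipotent cells, and 17.1%, 17.8% and 18.4% in neurogenic progenitors, which are about to give rise to neurons. They took 12.8%, 13.3% and 14.2% in amacrine cells, 9.93%, 10.7% and 11.8% in photoreceptors and 4.94%, 6.66% and 9.21% in retinal ganglion cells (RGCs). The 200 explant cells named RGCs had all 6 listed RGC markers at their highest. They were also highest in Neurog2 (296 CPM against 192 CPM in neurogenic progenitors) and Slc32a1 (59.1 CPM against 53.8 CPM in amacrine cells). Most were rich in mitochondrial UMIs, and the paper states that its explants lack viable RGCs. The lowest primary progenitor sample lay above every sample of amacrine cells, photoreceptors and RGCs. Relative to primary progenitors of the same sample, the share was lower by 2.57 ± 0.733 percentage points in neurogenic progenitors, 6.86 ± 1.00 in amacrine cells, 9.52 ± 1.42 in photoreceptors and 13.5 ± 2.20 in RGCs (SD, n = 8). Each difference had the same sign in 8 of 8 explants (exact sign-flip permutation test, two-sided, p = 0.00781, the smallest it can give, adjusted p = 0.0234 over 12 comparisons).

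At P0 the wild-type sample had a share of 23.0% in primary progenitors, the heterozygous samples 21.2% and 22.6% and the knockout samples 21.8% and 22.2%. Neurogenic progenitors lay close by, at 22.4% in the wild-type sample, 21.0% and 21.7% in heterozygous samples, and 21.5% and 21.5% in knockout samples. The corresponding photoreceptor values were 18.8%, 16.9% and 17.8%, and 18.0% and 16.9%. Primary progenitors and photoreceptors did not overlap, whereas primary and neurogenic progenitors did. Differences from primary progenitors were -0.520 ± 0.290 percentage points for neurogenic progenitors, -4.50 ± 0.586 for photoreceptors, -6.52 ± 0.736 for amacrine cells and -8.66 ± 0.295 for RGCs (SD, n = 5). All were lower in 5 of 5 samples, for which the exact two-sided test gives p = 0.0625, the smallest that 5 samples allow. The neurogenic difference was 0.186 with SCT counts and -1.08 in cells of 6000 to 8000 UMIs.

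At P14 shares were lower in every type than in the P0 types, and the glia were above the neurons. Muller glia, the radial glia of the retina, had 9.52% in the wild-type sample, 9.13% and 9.15% in heterozygous samples, and 8.33% and 8.79% in knockout samples. Rods had 7.37%, 7.76% and 7.92%, and 7.67% and 7.70% in the same order. All 5 Muller glia values lay above all 5 rod values, with a mean difference of 1.30 ± 0.55 percentage points (higher in 5 of 5, exact p = 0.0625, the smallest possible). The difference from rods was -1.20 ± 0.413 percentage points for cones and -1.50 ± 0.914 for bipolar cells, lower in 5 of 5 samples for both. In cells of 3000 to 4000 UMIs, the difference from rods was 6.20 for Muller glia, -6.58 for bipolar cells and, in the 3 samples with such cells, -3.28 for cones. Only 18 Muller glia, 71 bipolar cells and 5 cones lay in that range. The median Muller glia cell had 15108 UMIs and the median cone 10245, so the range holds unusually shallow cells of both types. Bipolar cells with more than 10% mitochondrial UMIs had a median of 2706.5 UMIs, and the others 8493.5. The few amacrine cells, 68 in all, ranged from 0.739% to 5.03%.

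**Figure D1:**
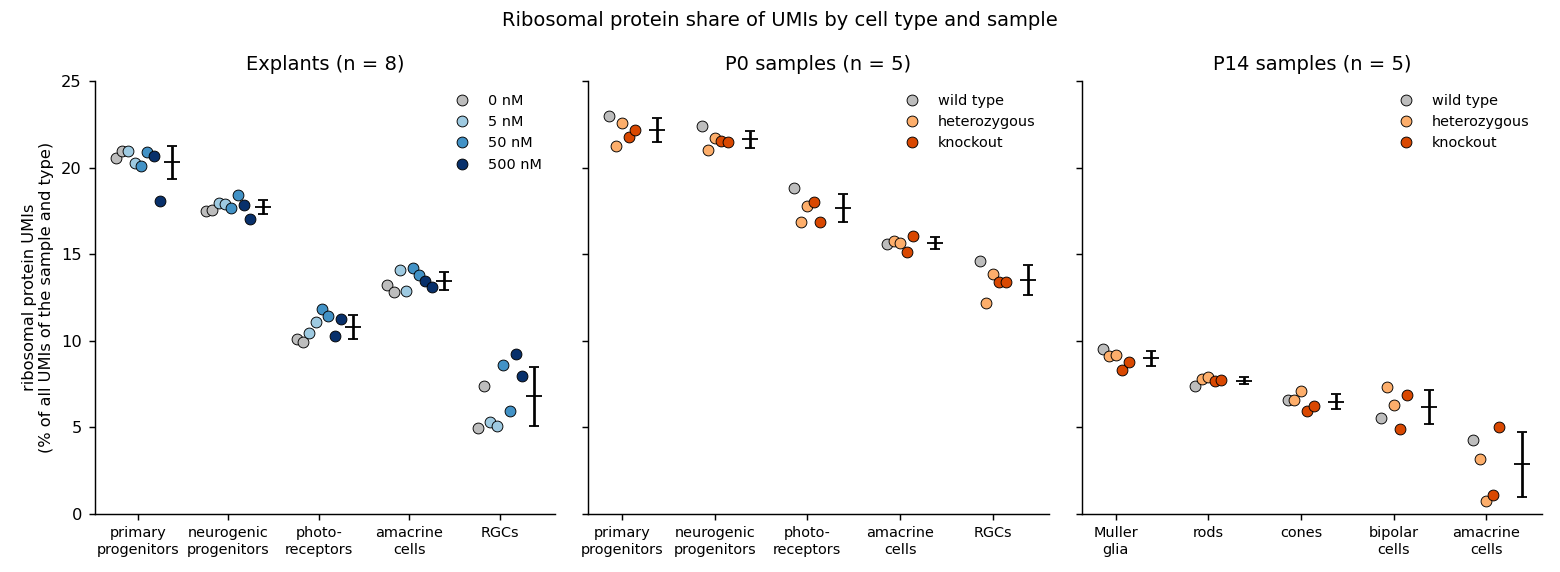
Share of UMIs from cytosolic ribosomal protein genes (percent, y axis) by cell type (x axis) in the 3 libraries. Each point is 1 sample, coloured by dose or genotype, and the line beside each type shows the mean with the SD (n = 8 explants, 5 P0 samples, 5 P14 samples). Explant means fall from 20.3% in primary progenitors to 10.8% in photoreceptors, and P14 means lie between 2.86% and 8.98%.

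The share moved with the mitochondrial content of cells in some types. In the 200 explant RGCs, 76.5% of cells had more than 10% mitochondrial UMIs, and the median cell had a share of 3.26% above that limit and 11.4% at or below it. Of the P14 bipolar cells, 61.6% were over the limit, with a median share of 1.45% against 7.65% in the others. The summed level of 6 rod markers was also higher in the bipolar cells over the limit, 5162 CPM against 2564 CPM. That of the 6 bipolar markers was higher there too, 6816 CPM against 5145 CPM. P14 Muller glia went the other way, with a median share of 13.5% in the 38 cells over the limit and 8.96% in the others. In explant photoreceptors the 2 medians were close, at 9.42% and 9.57%. Among cells at or below the limit, the explant RGC difference was -8.66 percentage points, and the bipolar difference from rods was 0.497 ± 0.789 with 2 of 5 samples lower (exact p = 0.25). The lower bipolar share thus did not hold in those cells, while the photoreceptor and amacrine differences from primary progenitors did.

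**Figure D2:**
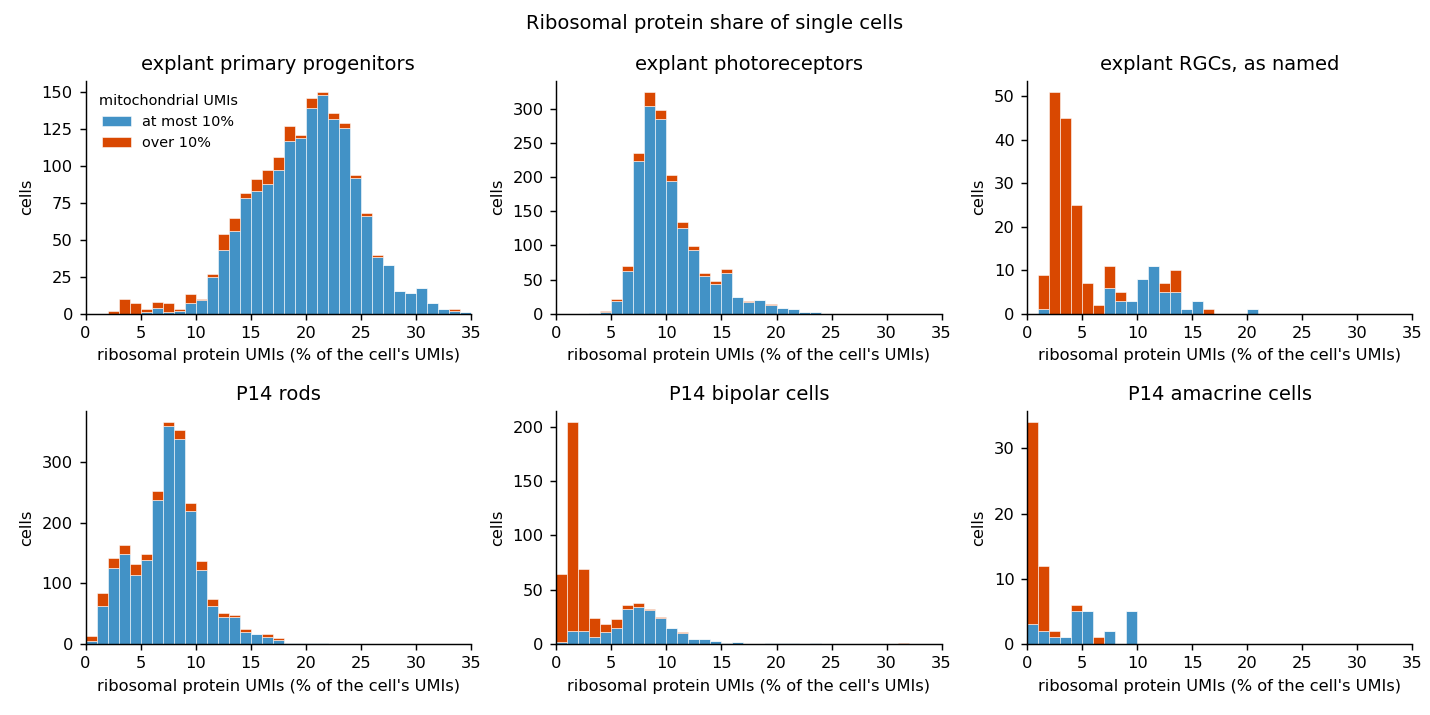
Distribution over cells of the ribosomal protein share (percent of a cell's UMIs, x axis) as the number of cells per bin (y axis), for 6 types. Stacked bars show cells with at most 10% mitochondrial UMIs in blue and the rest in orange. In P14 bipolar cells the medians are 7.65% and 1.45%, and in explant RGCs 11.4% and 3.26%.

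The number of UMIs from members was also lower in photoreceptors. The median explant primary progenitor had 902 UMIs from members and 3628 from other genes, and the median photoreceptor 253 and 2373. In cells of one depth range, 3000 to 4000 UMIs in explants and 6000 to 8000 at P0, the photoreceptor difference was -8.63 percentage points in explants and -4.70 at P0, and that of amacrine cells -7.44 and -10.1. Neurogenic progenitors differed by -2.03 in explants (lower in 7 of 8) and -1.08 at P0 (5 of 5), and explant RGCs by -14.5 (7 of 7). The median P0 RGC had 24853 UMIs and the median P0 primary progenitor 8759. No P0 RGC lay in the range, so the P0 RGC difference has no value at one depth. These ranges were chosen after the data were seen. A smaller cell and a lower capture of its mRNA cannot be told apart in these counts.

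Member by member, the fall from primary progenitors to photoreceptors took in the whole set in explants. All 77 members tested were lower (edgeR's quasi-likelihood test with sample as a block, adjusted p under 0.05 over all 8983 genes), where 35.6% of all genes were lower and 70.7% were called in either direction. The median log2 fold change was -0.98 over members, -0.97 over the 46 large-subunit and -1.01 over the 31 small-subunit members. At P0, 75 of 78 were lower and 1 was higher, against 33.4% of all genes lower, 34.4% higher and 67.9% called, with a median of -0.41. Within samples, the median ratio of photoreceptors to primary progenitors was -0.88 ± 0.14 on the log2 scale over the 8 explants and -0.33 ± 0.05 over the 5 P0 samples, and the ranges (-1.06 to -0.66 and -0.40 to -0.27) did not overlap.

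Rpsa, a small-subunit protein also known as a laminin receptor, had one of the steepest falls in both libraries. It had 3189, 3520 and 3755 CPM (lowest, median and highest) in explant primary progenitors and 1018, 1184 and 1431 CPM in explant photoreceptors. At P0 it had 3503 CPM in primary progenitors of the wild-type sample, 3295 and 3469 in heterozygous samples, and 3364 and 3344 in knockout samples, and 2177, 2128 and 2237, and 2051 and 1930 CPM in photoreceptors. No photoreceptor sample reached the lowest progenitor sample in either library. The log2 fold changes were -1.65 (SE 0.063) in explants and -0.77 (SE 0.033, edgeR adjusted p = 4.44e-15) at P0.

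The stalk proteins, which recruit the translation factors to the large subunit, fell together. Rplp0, the base of the stalk, had 4192, 4486 and 4770 CPM in explant primary progenitors and 1619, 1726 and 2119 CPM in photoreceptors. Its log2 fold change was -1.46, next to -1.36 for Rplp1, -1.21 for Rplp2 and -1.61 for Rpl12, which sits beside the stalk. At P0 the values were -0.69 for Rplp0, -0.69 for Rplp1 and -0.56 for Rplp2. All of these passed the test in both libraries.

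Other large-subunit members showed the range within the set. Rpl36a had the largest explant fall at -1.66 (SE 0.060, edgeR adjusted p = 3.3e-27), from 1133 to 1313 CPM in primary progenitors down to 356 to 478 CPM in photoreceptors. Rpl5 and Rpl11, which join the ribosome with the small RNA of the large subunit and otherwise restrain the p53 inhibitor Mdm2, fell by 0.86 and 1.00 in explants and by 0.26 and 0.44 at P0 on the log2 scale. Rpl38, known for its part in the translation of Hox mRNAs, fell by 0.95 and 0.53. Rpl22 and Rpl24 fell by 0.90 and 0.77 in explants and by 0.26 and 0.22 at P0, and Rpl39, at the peptide exit tunnel, by 1.18 and 0.44. Rpl10a had one of the weakest explant falls, by 0.50.

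Among small-subunit members, Rps19, mutated in Diamond-Blackfan anaemia, fell by 1.16 in explants and 0.55 at P0. Rps6, the target of the S6 kinases, fell by 1.07 and 0.33, Rps4x, encoded on the X chromosome, by 1.34 and 0.59, and Rps27a by 1.01 and 0.36. Rps14, which lies near the platform of the small subunit, was the least changed. It had 2911, 3338 and 3494 CPM in explant primary progenitors against 2494, 2606 and 2889 CPM in photoreceptors, a fall of 0.43 (edgeR adjusted p = 1.45e-09), but limma on SCT counts gave 0.0376. At P0 its log2 fold change was 0.03 (adjusted p = 0.463), and Rpl13a, a large-subunit protein, had -0.07 (adjusted p = 0.274). The P0 value of Rps14 was -0.0271 without the filter on low counts, and that of Rpl13a 0.14 by limma on SCT counts.

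Rpl3l, a paralog of Rpl3 known from heart and skeletal muscle, was the exception. It was counted only in photoreceptors among the explant types, with 19 UMIs (0, 4.29 and 5.60 CPM for lowest, median and highest). At P0 photoreceptors had 4.11 CPM in the wild-type sample, 6.43 and 3.19 in heterozygous samples, and 1.90 and 3.61 in knockout samples, 32 UMIs in all, and primary progenitors held 6 UMIs and at most 0.438 CPM. It was higher at P0 by 3.87 on the log2 scale (SE 0.595, edgeR adjusted p = 6.23e-06), too few counts to be tested in explants, and at P14 it was counted in cones (0 to 5.65 CPM) and rods (0 to 1.20 CPM) but at 0 in Muller glia, bipolar and amacrine cells. Rpl3 itself fell by 1.06 in explants and 0.39 at P0. The P0 call was lost without the sample block.

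Amacrine cells were lower than primary progenitors for all 77 members tested in both libraries, against 34.7% of all genes lower, 33.6% higher and 68.3% called in explants and 38% lower, 37% higher and 75.1% called at P0. The medians of the normalised fold changes were close, -0.63 in explants and -0.64 at P0. Within samples, the median ratio of amacrine cells to primary progenitors on the log2 scale was -0.58 ± 0.07 in explants and -0.49 ± 0.05 at P0 (SD). The steepest fall was in Rps27l, the paralog of Rps27 whose gene is known to respond to p53. In primary progenitors Rps27l had 511, 587 and 635 CPM in explants and in amacrine cells 194, 237 and 281 CPM, and at P0 the ranges were 662 to 696 CPM and 269 to 319 CPM. The groups did not overlap, and the log2 fold changes were -1.30 in explants and -1.36 at P0, whereas Rps27 changed by -0.69 and -0.74. In photoreceptors the pair was less far apart, with Rps27l at -1.04 and Rps27 at -0.90 in explants and -0.68 and -0.41 at P0. Whether the 2 paralogs differed from each other was not tested.

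The stalk again stood among the larger falls in amacrine cells. Rplp1 changed by -1.22 in explants and -1.21 at P0, Rplp0 by -0.82 and -0.86 and Rplp2 by -0.79 and -0.85. Rpsa changed by -0.95 and -0.94, Rps19 by -0.84 and -0.91, and Rpl12, in explants, by -1.17. At the other end, Rps7 had 3238 ± 152 CPM in P0 primary progenitors and 3320 ± 67.1 in amacrine cells. Rpl27 had 1099 ± 16.8 and 1128 ± 30.3 CPM, and Rpl7a 941 ± 33.4 and 953 ± 27.5 CPM, in the same order. These 3 mean CPM were thus higher in amacrine cells, while the normalised log2 fold changes were -0.11, -0.11 and -0.13. The 3 fold changes at P0 turned positive by limma on the authors' SCT-normalised counts.

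**Figure D3:**
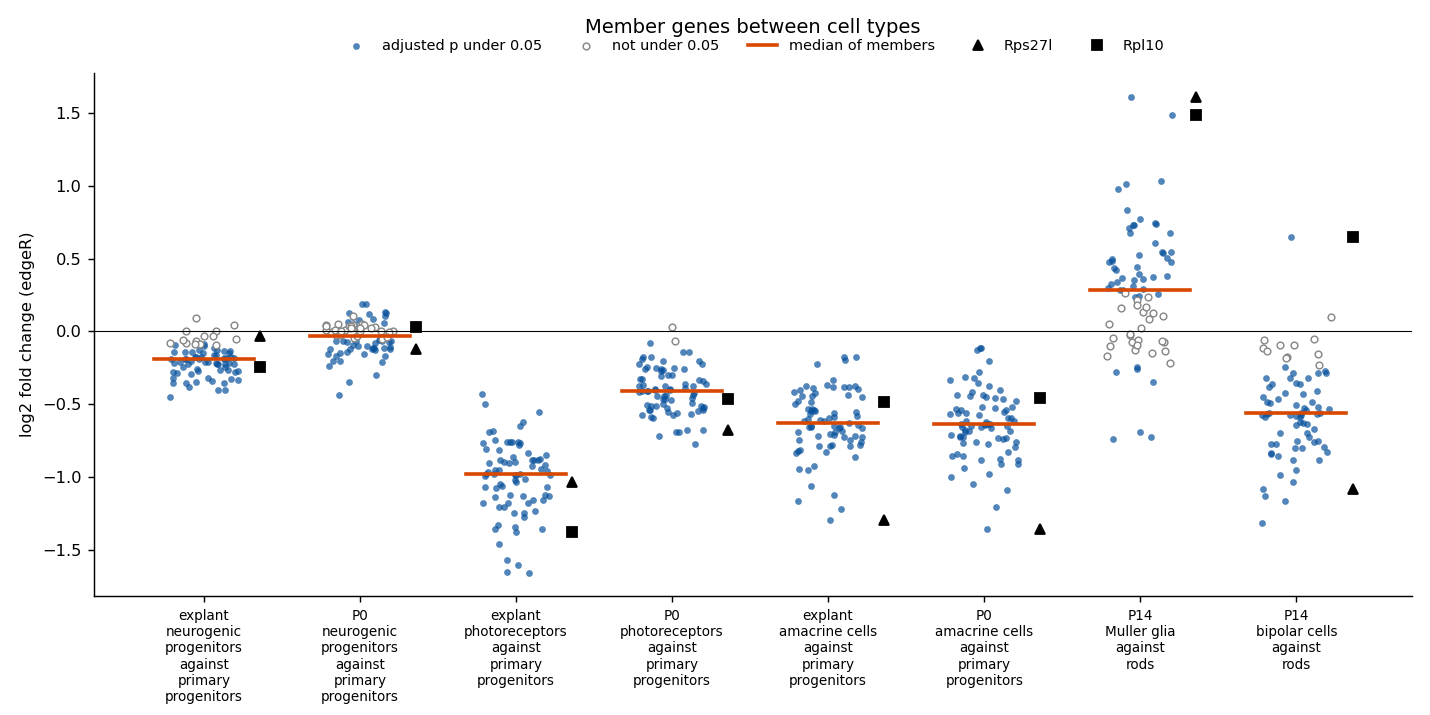
Log2 fold change of each member tested (y axis, points) in 8 comparisons between cell types (x axis), with the median as an orange line. Filled points passed adjusted p under 0.05 and open points did not, triangles repeat Rps27l and squares Rpl10, and Rpl3l at P0 is left out as it lies off the scale. All explant photoreceptor and amacrine values lie below 0, while Muller glia against rods spans -0.74 to 1.61.

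Neurogenic progenitors lay between these states in explants and next to primary progenitors at P0. In explants 63 of 77 members were lower and 0 higher, against 18.6% of all genes lower and 37.3% called, with a median of -0.19 (0 of 77 were called higher by DESeq2, and 1 by limma). At P0 35 were lower and 13 higher, against 23.6% of all genes lower, 22.3% higher and 45.9% called, with a median of -0.03. Rps12, on the head of the small subunit, had 3115, 3670 and 3759 CPM in explant primary and 2502, 2640 and 2804 CPM in neurogenic progenitors, a fold change of -0.45, and -0.30 at P0. Rpl41 changed by -0.40 and -0.44, and Rplp1 by -0.36 and -0.35. Rps9, of the small subunit, was higher at P0 by 0.19, and Rpl37 by 0.13. In explants Rps9 had 0.04 (edgeR adjusted p = 0.359). The P0 counts depended on the normalisation and on the test, and limma on SCT counts called more members higher than lower.

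The same members tended to have the larger falls in explants and at P0, which are separate samples. Over the 77 members with at least 50 CPM, the log2 fold changes of the libraries had a Pearson r of 0.828 (Spearman's rho 0.819) for photoreceptors, 0.807 (0.791) for neurogenic progenitors and 0.939 (0.919) for amacrine cells. This is a correlation across genes, which are not independent replicates and share base composition and copy sequence in both libraries.

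**Figure D4:**
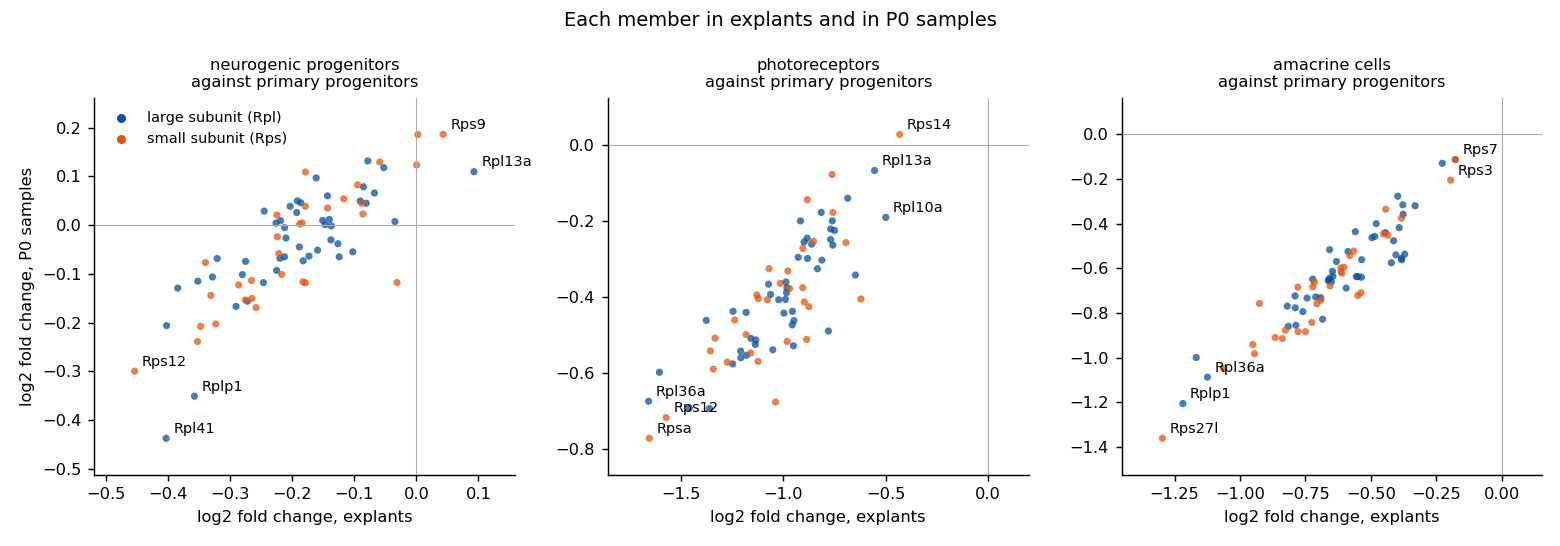
Log2 fold change of each member in explants (x axis) against P0 (y axis) for neurogenic progenitors, photoreceptors and amacrine cells, each against primary progenitors. Points are the 77 members, blue for the large and orange for the small subunit, and grey lines mark 0. Photoreceptor values reach -1.66 in explants and -0.77 at P0, while amacrine values reach -1.30 and -1.36.

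The difference between photoreceptors and primary progenitors was larger in explants than at P0 by 5.01 percentage points of share (exact permutation over samples, 1287 arrangements, two-sided, p = 0.000777, the smallest they can give, adjusted p = 0.00155 over 4 types). By the same exact permutation test it was larger by 2.05 for neurogenic progenitors (p = 0.000777, adjusted p = 0.00155) and by 4.84 for RGCs (p = 0.00155, adjusted p = 0.00207). In cells with at most 10% mitochondrial UMIs, the RGC difference was -8.66 ± 2.30 in explants and -8.68 ± 0.312 at P0 (SD over samples). The gap between the library means was not seen there, which was not tested. Of the 200 explant RGCs, 153 were over that limit, so the explant value rests on the few others. For amacrine cells the explant difference was -6.86 and that of P0 -6.52, and the exact permutation test of their difference gave p = 0.524. The explants of this comparison were cultured CD1 tissue in a library of their own, so which of these the difference goes with cannot be told apart. Agonist doses were pooled in the explants and *Sstr2* genotypes at P0, and the part of dose and genotype was not tested.

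In P14 Muller glia, members moved both ways relative to rods. Of 77 tested, 43 were higher and 7 lower, against 36.7% of all genes higher, 35.5% lower and 72.2% called, with a median of 0.28. The largest rise was again that of Rps27l, at 116 CPM in rods of the wild-type sample, 106 and 109 in heterozygous samples, and 103 and 96.9 in knockout samples, and 381, 313 and 317, and 262 and 305 CPM in Muller glia. Every Muller glia value lay above every rod value, and the log2 fold change was 1.61. Rpl10, which joins the large subunit last and lets it pair with the small one, had 188 to 264 CPM in rods and 574 to 661 in Muller glia, and rose by 1.49. Its sequence has near-identical copies in the genome. The one that is listed, the pseudogene Rpl10-ps3, had 12.1 to 17.4 CPM over all cells of the P14 samples. The part of misassigned reads in the level of Rpl10 was not tested.

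Further members that rose in Muller glia were Rpl31 (1.04), Rplp0 (0.98), Rps4x (0.74), Rpl38 (0.73), Rps19 (0.68), Rps27 (0.68), Rpl11 (0.54) and Rpl29 (0.52). Members that fell were Rpl21 (-0.74), Rpl10a (-0.72) and Rps6 (-0.69). Rps6 had 561 CPM in rods of the wild-type sample, 560 and 598 in heterozygous samples, and 571 and 576 in knockout samples, and 377, 333 and 405, and 312 and 329 CPM in Muller glia, with no overlap. The stalk proteins did not move together here, as Rplp0 rose while Rplp1 had 0.11 and Rplp2 -0.02, neither of which passed the test.

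Bipolar cells, compared with rods, had 65 of 77 members lower and 1 higher, against 29.9% of all genes lower and 60.5% called, with a median of -0.56. In cells with at most 10% mitochondrial UMIs, the counts were 32 lower and 10 higher and the median -0.16. The share of all genes called in those cells is not given here, so these counts have no background beside them. Rpl10 was the member called higher, at 332 CPM in the wild-type sample, 474 and 458 in heterozygous samples, and 354 and 489 in knockout samples against 188 to 264 in rods, a log2 fold change of 0.65. The largest falls were in Rpl10a (-1.32), Rpl21 (-1.16), Rplp1 (-1.13) and Rps27l (-1.08), followed by Rpl22 (-0.95), Rplp2 (-0.84) and Rps27 (-0.76). All 13 mitochondrial genome genes tested were higher in bipolar cells. With a library size that left out ribosomal and mitochondrial genes, fewer members were called lower and more higher. The cause of the members' lower level was not tested.

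Other genes of the translation machinery were followed on lists chosen with earlier results of these data known, beside 35.6% of all genes lower and 35.1% higher in explant photoreceptors and 33.4% and 34.4% at P0. Of 18 other translation genes tested, such as elongation factors, 16 were lower and 2 higher in explant photoreceptors (median -0.87) and 12 lower and 3 higher at P0 (-0.34). Ribosome biogenesis genes, such as nucleolar proteins, were lower in 18 of 19 in explant photoreceptors (median -1.15) and 16 of 20 at P0 (-0.61), with 0 higher in both. Both medians lay below those of the members. Genes upstream of ribosome production, Myc and mTOR among them, split with 2 higher and 2 lower of 6 in both libraries. Of 77 mitochondrial ribosomal proteins, 45 were lower and 10 higher in explants (median -0.29), and 38 lower and 11 higher at P0 (-0.18). Of 13 genes of the mitochondrial genome, 5 were lower and 1 higher in explants, and 2 lower and 6 higher at P0.

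In amacrine cells, the biogenesis list had 15 of 19 lower in explants (median -0.59) and 17 of 20 at P0 (-0.64), again with 0 higher, and the mitochondrial ribosome list 39 and 52 of 77 lower, beside 34.7% and 38% of all genes. The other translation genes had 13 lower in each library, with 2 higher in explants and 3 at P0. Muller glia were unlike this, since biogenesis genes had 10 lower and 3 higher of 19 (median -0.50) while the members' median was 0.28. In the same comparison other translation genes had 10 higher and 5 lower of 19 (0.24), beside 36.7% of all genes higher and 35.5% lower. In bipolar cells the mitochondrial ribosome list had 38 lower and 2 higher of 77, and the biogenesis list 7 lower and 4 higher of 19, beside 29.9% of all genes lower and 30.6% higher. Whether any list differed from the members was not tested.

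The members' share showed no relation with agonist dose that passed its test. In primary progenitors it was 20.6% and 21.0% at 0 nM, 20.9% and 20.2% at 5 nM, 20.1% and 20.9% at 50 nM and 20.7% and 18.0% at 500 nM. One sample at 500 nM lay apart from the other 7. The Pearson correlation with log10(dose + 1 nM) over 8 explants was -0.544 in primary progenitors (exact permutation over 2520 arrangements, two-sided, p = 0.145; rho -0.488, p = 0.247), -0.0516 in neurogenic progenitors (p = 0.906), 0.515 in photoreceptors (p = 0.192), 0.272 in amacrine cells (p = 0.495) and 0.679 in RGCs (p = 0.0714; rho 0.732, p = 0.0548). Over these types and all cells together, 6 tests, the lowest adjusted p was 0.384 for Pearson and 0.329 for Spearman. Without the 500 nM samples, which lie farthest out on the dose axis, r was 0.361 in RGCs (exact permutation p = 0.489) and 0.947 in photoreceptors (p = 0.0111, not adjusted).

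The sample that lay apart also held lens transcripts. Of 16 genes listed for other cells the tissue could hold, 11 were in the table, and their summed level in primary progenitors was 2940 CPM in the second 500 nM sample and 34.0 to 57.9 CPM in the other 7. The lens crystallins Cryaa, at 1739 CPM against 15.1 to 21.9, and Cryba1, at 1098 CPM against 12.5 to 24.9, made up most of it. In that sample 3 of 369 cells held more than 5 crystallin UMIs, against 0 cells in each of the other 7, and without those 3 cells the share was 18.3%.

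No member was called between 500 and 0 nM in any of the 5 types by edgeR, DESeq2 or limma. The percentages of all genes below are at the adjusted threshold. The share of all genes at an unadjusted p under 0.05 is not given, here or between genotypes. Member counts at that unadjusted limit thus have no background beside them and are not read as a shift. In primary progenitors 0 of 77 passed (0.341% of all genes did), with a median log2 fold change of -0.17, a range of -0.30 to 0.23 and 19 members at an unadjusted edgeR p under 0.05. In photoreceptors 0 of 77 passed (0.0941% of all genes, 0.0538% lower and 0.0403% higher), with a median of 0.12 and 11 at an unadjusted p under 0.05. In neurogenic progenitors (0.0988% of all genes called, 0.0659% lower) the median was 0.00 with 0 members at an unadjusted p under 0.05, in amacrine cells (0.269%, 0.0489% lower) it was 0.03 with 2, and in RGCs (0% called, 73 members tested) it was 0.51 with 13. The primary progenitor result rested on which 500 nM sample was used, since 38 members were lower (1.47% of all genes were) when the first was left out and only the sample with the crystallin-rich cells remained.

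Between genotypes the share did not pass its test in any type. Knockout minus the other 3 samples was -0.299 percentage points in P0 primary progenitors, -0.206 in neurogenic progenitors and -0.373 in photoreceptors, and at P14 it was -0.707 in Muller glia, -0.670 in cones and 0.00752 in rods. The Muller glia and cone values reach p = 0.1, the smallest that 2 against 3 samples allow (exact permutation, two-sided), and an adjusted p of 0.6 over 12 comparisons. Both knockout samples were below the other 3 in those types.

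Between knockout and wild type at P0, edgeR called a single member, Rpl29 of the large subunit, and in RGCs alone (log2 fold change -1.60). DESeq2 and limma did not call it there. The share of all genes called in RGCs is not given here, so this call has no background beside it. The wild-type group is 1 sample, assumed to vary like the heterozygous and knockout pairs. The RGC level of Rpl29 was 1410 CPM in the wild-type sample, 653 and 790 CPM in the heterozygous pair and 217 and 784 CPM in the knockout pair. The 2 knockout samples thus lay far apart, and the RGC sums of the 5 samples rest on 85 cells in all. In primary progenitors 0 of 77 passed (0.0251% of all genes, 0.00838% lower and 0.0168% higher), in neurogenic progenitors 0 (0.0334%, 0.0111% lower and 0.0223% higher), in photoreceptors 0 (0.00987%) and in amacrine cells 0 (0.00964%), with 4, 7, 2 and 2 members at an unadjusted edgeR p under 0.05, respectively. Limma called 1 member in neurogenic progenitors, and DESeq2 called 0 in all 5 types. Rpl29 itself changed there by -1.62 (adjusted p = 0.993), -1.66 (0.655), -1.58 (0.979) and -1.44 (0.998).

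At P0 Rpl29 varied more between samples than any other member, in each type. At chr9:106429454-106431568 (GRCm38), Rpl29 had in P0 primary progenitors 2117 CPM in the wild-type sample, 1145 and 1177 in heterozygous samples, and 281 and 1123 in knockout samples. One knockout sample was low while the other matched the heterozygous ones, a 7.53-fold range that recurred in neurogenic progenitors (2116, 1082 and 1045, and 266 and 1087 CPM), photoreceptors (1566, 889 and 894, and 238 and 811) and amacrine cells (1567, 869 and 850, and 230 and 901). The SD of log2 CPM over the 5 samples was 1.06 for Rpl29 against a median of 0.0389 over 77 members. In explants Rpl29 was low and even, at 141 to 191 CPM in primary progenitors. At P14 it had 390 CPM in rods of the wild-type sample, 622 and 363 in heterozygous samples, and 560 and 343 in knockout samples, with no order by genotype.

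At P14, 0 of 77 members were called in rods (0.0211% of all genes called), bipolar cells (0.0797%), Muller glia (0.0681%) and cones (0.471%) and in the few amacrine cells (0%) by edgeR, DESeq2 or limma. At an unadjusted edgeR p under 0.05 there were 2 members in rods, 2 in cones and 0 in the other types. The largest rod change was that of Rps23, a protein of the decoding centre, at 736 CPM in the wild-type sample, 783 and 1511 in heterozygous samples, and 1514 and 1394 in knockout samples. The wild-type sample and one heterozygous sample were low and the other 3 high, a log2 fold change of 1.00 (SE 0.267, edgeR adjusted p = 0.9999), with the spread again taken from the heterozygous and knockout pairs. In Muller glia of the same samples Rps23 was even, from 1175 to 1433 CPM.

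Rpl26, a large-subunit protein near the exit tunnel, differed by sample in the explants. It had 1563 and 1120 CPM at 0 nM, 2149 and 1184 at 5 nM, 1227 and 1184 at 50 nM and 1901 and 1361 at 500 nM in primary progenitors. The first 5 nM and the first 500 nM sample were the highest in each of the 5 types, and the 500 nM change was 0.23 (SE 0.158, edgeR adjusted p = 0.711). Rps23 and Rpl26 were singled out, and the spread of Rpl29 between samples was described, after their values were seen. Rpl29 was also on the list of members to name in every comparison, which was made with earlier results of these data known. Rpl29 varied most between samples in each P0 type, Rps23 in P14 rods and Rpl26 in explant primary progenitors. Over all P14 cells Rpl29 varied more than Rps23, with an SD of log2 CPM of 0.366 against 0.273.

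Copies of member sequences were compared with them, because reads can be assigned to either. Among annotated mouse transcripts, Rpl29 had 17 others and Rps23 8 that were at least 97% identical over at least 200 of its last 500 bases, Rps18 4 and Rpl26 2, against a median of 1 over 79 members and 0 for 36 of them. The 2 listed copies of Rpl29, Gm17669 and Gm3550, reached at most 2.95 and 20.1 CPM at P0. The other near-identical ones were not analysed here, and the part of misassigned reads in the level of Rpl29 was not tested. For Rps18, a copy also differed between samples. Gm10260 had 52.9 CPM in all cells of the wild-type P0 sample, 94.2 and 1.30 in heterozygous samples, and 0.453 and 50.3 in knockout samples, while Rps18 had 1814, 1437 and 1939, and 1874 and 1701 CPM. The sample with the most Gm10260 had the least Rps18, and the 2 samples near 0 had the most. With the similar Gm11361 added the sums ran from 1633 to 1943 CPM. In explants Gm10260 was at 253 to 310 CPM in every sample. Alleles of the mixed background were not read here, and their part in these levels was not tested.

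**Figure D5:**
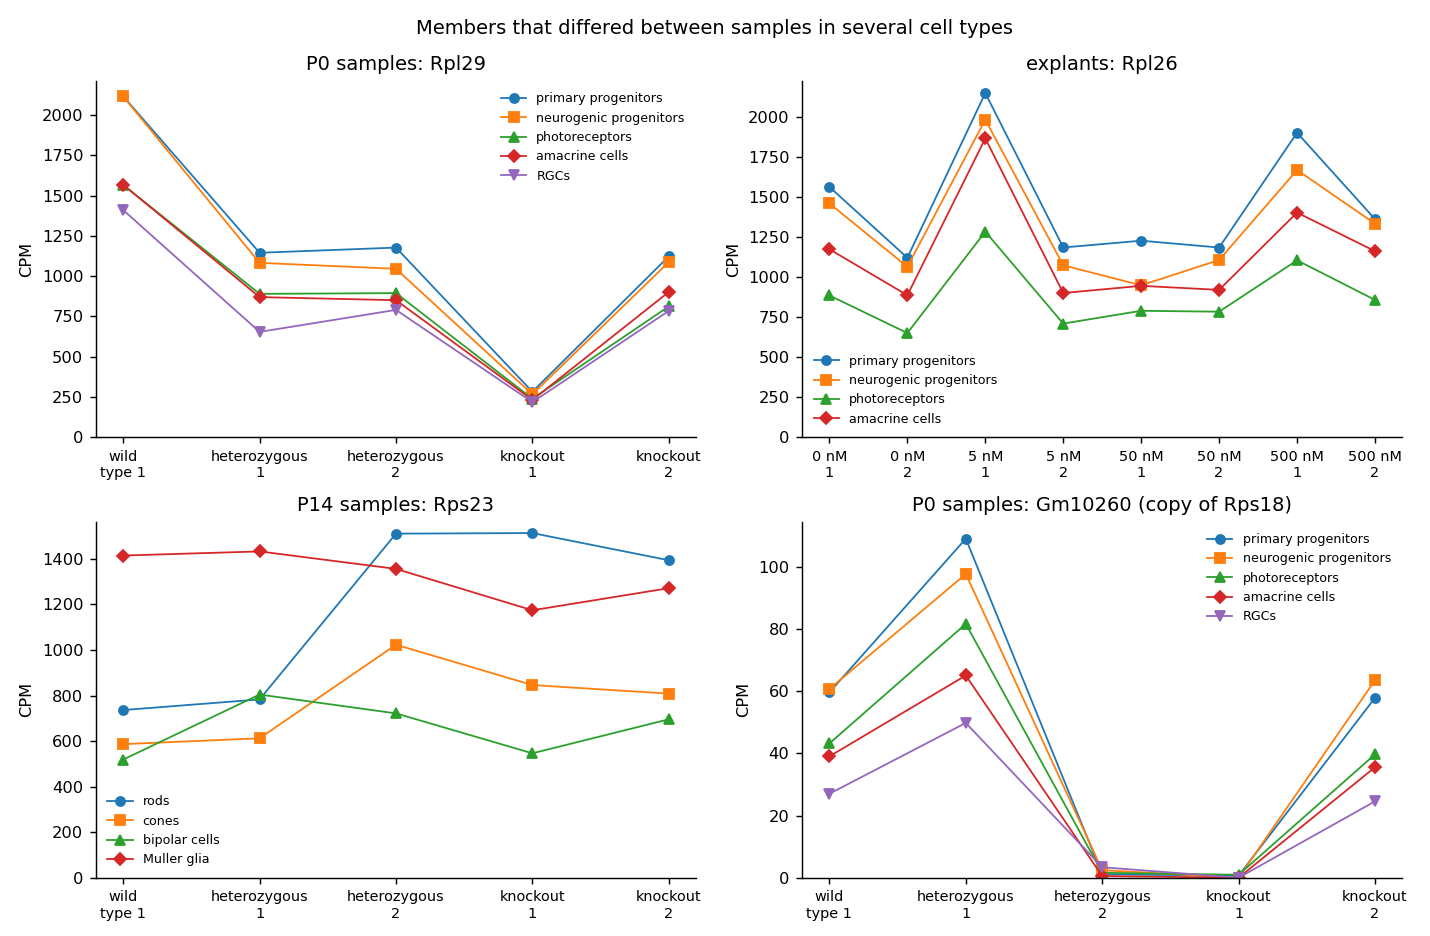
Level (CPM, y axis) in each sample (x axis) of Rpl29 at P0, Rpl26 in explants, Rps23 at P14 and Gm10260, a copy of Rps18, at P0. Each line joins the values of 1 cell type. Rpl29 ranges from 281 to 2117 CPM in P0 primary progenitors, with the same lowest and highest sample in each type.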

How the data were processed

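Droplet 3′ libraries were processed by the authors with Cell Ranger 3.1.0 against mm10, and Seurat 3, as the submitters' processing notes list them. The methods state that samples of origin were called with deMULTIplex and that types were named from markers of clusters after SCT normalisation. Deposited by the authors were raw counts (UMIs by gene and cell) and the natural log of 1 plus the SCT-corrected count, with a multiplexing barcode, a condition and a type for each cell. Samples were grouped by that barcode and condition, and their numbers are names only. The natural log values were turned back into whole SCT counts and served only as an alternative. No further filter on cells or doublets was applied, and how doublets were treated is not given in the sources used here.

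Raw counts were summed per sample and type. The share is the percent of summed UMIs from members. Genes were tested with edgeR 4.0.16 (quasi-likelihood test, TMM, filterByExpr, Benjamini-Hochberg adjustment over all genes tested, threshold 0.05) in R 4.3.3, with sample as a block between types of the same samples. DESeq2 1.42.0 and limma 3.58.1 (log2 of SCT CPM + 1) were alternatives. Shares were tested by exact permutation over samples (scipy 1.17.1). Alternatives were another tool, scaling, filter, denominator, member rule, contrast or set of cells, and leaving out each sample. The limits by mitochondrial content, depth and crystallins were chosen after the data were seen. The number of samples, and few cells in small types, limit the precision. Scripts were tested on simulated data. Promoters came from RefSeq and copies were found with blastn 2.17.0. For types, the members named with values are the 3 highest and 3 lowest log2 fold changes, the stalk genes, paralog pairs and Rpsa, Rps6, Rps19, Rps27a, Rpl5, Rpl11, Rpl22, Rpl24, Rpl29 and Rpl38, in part for some comparisons. For dose and genotype, counts and ranges are given, with Rpl29 from that list and other genes that varied between samples named after their values were seen. Members and lists were chosen with earlier results of these data known. Some members that this rule names are not reported here.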

Additional observations from a re-analysis of the deposited data

Results flagged for a closer look

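In explant primary progenitors the second 500 nM sample had a ribosomal protein share of 18.0%, farther from its nearest neighbour at 20.1% than the spread of the other explants. Across the 24 groups of samples examined for a value that lies apart, this was the one found. The groups were the shares of each type and of all cells, and the levels of a few members that varied between samples. Chance gives about 1 in 20 separate groups, but these groups overlap and some were chosen for their spread.

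The difference of a type from primary progenitors was not the same in explants and P0 samples in 3 of 4 types, by exact permutation over samples. The explant difference minus the P0 difference was -2.05 percentage points for neurogenic progenitors, -5.01 for photoreceptors and -4.84 for RGCs. In explant RGCs 76.5% of cells had over 10% mitochondrial UMIs. Among the few cells at or below that limit the RGC difference from primary progenitors was -8.66 ± 2.30 percentage points in explants. At P0 it was -8.68 ± 0.312 (SD over samples), and the 2 values were not tested against each other.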

How the results depend on the processing

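Of 152 gene values set against 1998 alternatives, 1936 kept direction and side of the threshold. Shares that turned sign were those against dose in neurogenic progenitors (r = 0.21 with SCT counts), P0 neurogenic minus primary progenitors (0.186 with SCT counts), P14 bipolar cells minus rods (0.497 in cells with at most 10% mitochondrial UMIs), and knockout minus others in P0 photoreceptors (0.059 with SCT counts), P0 amacrine cells (0.0229 as a mean over cells) and P14 rods (-0.0363 without mitochondrial genes, -0.055 as a mean over cells). With a mean over cells, r with dose in RGCs was 0.791 (exact permutation p = 0.0306, not adjusted). These RGC samples held 11 and 5 cells at 0 nM and 10 and 58 at 500 nM. Their mitochondrial UMIs were 20.0% and 18.6% at 0 nM and 11.5% and 16.7% at 500 nM. The part of mitochondrial content in this correlation was not tested. Members called higher changed to 1 in explant photoreceptors without the filter, 1 in explant neurogenic progenitors by limma, 3 in P0 photoreceptors by limma and 0 with no replicate block. In P0 neurogenic progenitors members lower were 23 by DESeq2, 18 by limma and 23 with no replicate block, and members higher 6 by DESeq2 or without the filter, 36 by limma and 8 with no replicate block. In Muller glia 4 were lower by DESeq2. In bipolar cells 40 were lower and 4 higher with a library size that left out ribosomal and mitochondrial genes, and 32 and 10 in cells with at most 10% mitochondrial UMIs. Between knockout and wild type, 1 was lower in P0 neurogenic progenitors by limma, 1 in P0 photoreceptors and 1 in P0 amacrine cells without the filter, 0 in P0 RGCs by DESeq2 and 0 by limma, 1 was higher in P0 RGCs against heterozygous samples, and 2 were higher in P14 rods without the filter. The share of all genes called under each alternative is not given in this section, so its member counts have no background beside them. The causes were not tested.

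Gene values (log2 fold changes) that turned sign were Rps14 (0.0376 in explant photoreceptors by limma, and at P0 -0.0271 without the filter), Rpl13a (0.14) and Rps9 (0.000375) in P0 photoreceptors by limma, Rps7 (0.0584), Rpl27 (0.0696) and Rpl7a (0.0597) in P0 amacrine cells by limma, and Rplp2 in Muller glia (0.0264 by DESeq2, 0.025 with its size factors and 0.0584 with no replicate block). Leaving out 1 sample gave -0.0182 to 0.0364 for Rps14 in P0 photoreceptors, -0.0335 to 0.0768 for Rplp2 in Muller glia and -0.0666 to 0.473 for Rpl26 by dose in explant primary progenitors.

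Leaving out 1 sample at a time gave r with dose of 0.542 to 0.862 in RGCs, -0.218 to 0.507 in neurogenic progenitors, 0.361 to 0.824 in photoreceptors and -0.746 to -0.175 in primary progenitors. Knockout minus others ran at P0 from -0.826 to 0.393 in RGCs, -0.551 to 0.343 in amacrine cells, -0.543 to 0.131 in neurogenic progenitors, -0.930 to 0.183 in photoreceptors and -0.815 to 0.0551 in primary progenitors, and at P14 from -1.63 to 2.31 in amacrine cells, -1.48 to 0.458 in bipolar cells and -0.148 to 0.125 in rods. Members called ran from 0 to 2 higher in P14 rods and in explant photoreceptors by dose, 0 to 1 higher and 0 to 38 lower in explant primary progenitors by dose, 1 to 2 lower in P0 RGCs, 0 to 1 lower in the other P0 types and 4 to 7 lower in Muller glia. The log2 fold change of Rpl29 at P0 ran from -2.76 to -0.77 in amacrine cells, -2.98 to -0.98 in neurogenic progenitors, -2.71 to -0.97 in photoreceptors and -2.93 to -0.95 in primary progenitors. No paired analysis was possible because the deposited tables carry no replicate numbers that pair samples across doses or genotypes, so the dose fit with replicate as a block was not run, and the replicate block was used between types of the same sample.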

Other observations

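Genes of the ribosome that lie outside the symbol rule had levels of their own, given here over all cells of a sample. Rps3a1, a small-subunit protein, had 2134 to 2954 CPM in explants, 2930 to 3193 CPM at P0 and 858 to 946 CPM at P14. Rpl22l1, the paralog of Rpl22, had 512 to 656 CPM in explants, 536 to 652 CPM at P0 and 322 to 361 CPM at P14.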
